A study of Mus musculus with 4 samples.

Results

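The 10 transcripts described here form the core of the circadian clock and its direct output in liver: the activators Arntl (also called Bmal1) and Clock, the repressors Per1, Per2, Per3 and Cry1, the nuclear receptors Nr1d1 and Nr1d2 (REV-ERBα and REV-ERBβ), and the output factors Dbp and Tef. They were chosen by gene symbol, as every gene probe that the scanner files name with one of these 10 symbols, which gave 13 of 39392 probes and 10 of 30439 genes or transcripts. RNA from whole liver had been hybridised on 4 one-colour arrays, 1 from each genotype in each of 2 feeding states, so that no group had a replicate, and whether RNA of several mice was pooled is not given in the sources used here. All 4 livers came from male C57BL/6J mice after 24 weeks on a high-fat diet (HFD), and all mice carried the loxP-flanked Drp1 gene (Drp1flox/flox). Control (Cont) mice, littermates that the labels call wild type, carried no other change named in the sources, whereas liver-specific knockout (Drp1LiKO) mice also carried Cre under the albumin promoter (Alb-CreTg/+), which is active in hepatocytes and leaves the other cells of the liver with an intact gene. Drp1, encoded by Dnm1l, is the GTPase that divides mitochondria. In each genotype 1 liver was labelled refed. The sample records give this as a 17 h fast followed by 4 h of refeeding, and the study's methods give a slightly shorter fast. For the second liver of each genotype no feeding state was labelled. These livers are called not refed here, and the study's methods describe an overnight fast for its animals.

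The circadian clock is a transcriptional loop that runs in nearly every cell. The ARNTL and CLOCK proteins bind E-box elements together and activate the Per, Cry, Nr1d and Dbp genes; PER and CRY proteins then repress that activity, and REV-ERB proteins repress Arntl through ROR elements (RORE). DBP and TEF, together with HLF, bind D-box elements and carry the rhythm to genes of metabolism and detoxification. In liver the loop follows both the light cycle and the time of feeding, and Arntl and Dbp peak at opposite times of day. According to the study's methods, refed animals were collected in the middle of the afternoon and experiments on fasted animals were generally run late in the morning, with lights off in the evening. For electron microscopy fasted livers were taken in the afternoon window instead, and which window applies to the arrayed livers that were not refed is not stated. Feeding state and time of day therefore cannot be told apart in any refeeding difference below. The hour at which each arrayed liver was taken is not given either, and no group had a replicate. A genotype difference below therefore cannot be told apart from a difference in hour or clock phase between the individual animals, and this was not tested.

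To show which of these control elements lie close to the members' own start sites, promoter windows of 300 bases (250 before to 50 after the start) from RefSeq on GRCm38.p6 were searched on both strands for an E-box (CACGTG), a D-box (TTANGTAA), a RORE (the receptor half-site GGTCA behind an A- and T-containing stretch) and a cAMP response element (TGACGTCA). Windows were held for 9 of the 10 genes, all but Per2. These 9 genes had 14 windows. An E-box was found in 3 of the genes and 4 of the windows: Per1, Cry1 and both windows of Tef. Per3 had 2 D-boxes in 1 window and the second window of Arntl had a RORE, while no member window had the cAMP response element and no match overlapped another. Of all 32851 windows, 7.15% held the E-box, 2.32% the D-box, 2.46% the RORE and 1.79% the cAMP response element. The stretches that hold these elements are given with the element in capitals, on the strand of the gene, at chr11:69098754-69098813 (Per1, plus strand), chr10:85185085-85185144 (Cry1, minus strand), chr15:81802517-81802576 and chr15:81811247-81811306 (Tef, plus strand), chr4:151044805-151044880 (Per3, minus strand) and chr7:113207528-113207555 (Arntl, plus strand, just after the start site). The 200 bases before the start of Dbp, at chr7:45705047-45705246 (plus strand), are shown because Dbp is the output gene with the widest range of signals here, and they hold none of the 4 elements as spelled above.
Per1: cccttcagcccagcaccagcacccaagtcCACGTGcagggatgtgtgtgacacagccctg
Cry1: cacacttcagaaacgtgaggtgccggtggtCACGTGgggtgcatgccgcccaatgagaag
Tef, window 1: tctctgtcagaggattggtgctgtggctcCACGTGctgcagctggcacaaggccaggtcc
Tef, window 2: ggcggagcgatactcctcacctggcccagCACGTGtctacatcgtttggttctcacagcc
Per3: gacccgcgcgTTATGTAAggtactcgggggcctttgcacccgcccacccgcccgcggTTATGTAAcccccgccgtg
Arntl: ggaaggcagaAAGTAGGTCAgggacgga
Dbp: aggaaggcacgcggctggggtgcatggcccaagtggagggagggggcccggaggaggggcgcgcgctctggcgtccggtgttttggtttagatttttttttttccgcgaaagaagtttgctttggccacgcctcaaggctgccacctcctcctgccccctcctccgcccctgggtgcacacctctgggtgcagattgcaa

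Signals are given on 1 scale throughout, the log2 processed signal of a probe minus the log2 of the 75th percentile of all gene probes on the same array, so that 0 is the level of a fairly bright probe. That percentile lay between 357 and 722 scanner units, 48.7 to 58.2% of spots were well above background, and no spot was saturated. A difference carries the standard error (SE) of the scanner software's error model, which covers measurement of these 2 spots alone and not the spread between animals. A difference was called when it reached 2-fold and the brighter signal was well above background. Of the 10 members 8 were well above background on all 4 arrays; Per3 reached that level only in the Drp1LiKO liver that was not refed, and Cry1 only in the refed Drp1LiKO liver. A probe's level is compared only with the same probe on other arrays. The median over 14447 genes measured on all 4 arrays was −0.12 for the genotype difference without refeeding and −0.08 after refeeding, and 0.11 and 0.12 for the refeeding difference in Cont and Drp1LiKO liver. Under quantile normalization the first of these became −0.01, so a genotype difference of about 0.1 on the log2 scale is within the choice of scaling. The bright members Dbp and Tef moved by more. Without refeeding their genotype differences went from −1.80 to −1.58 and from −1.0 to −0.76 under quantile normalization.

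**Figure D1:**
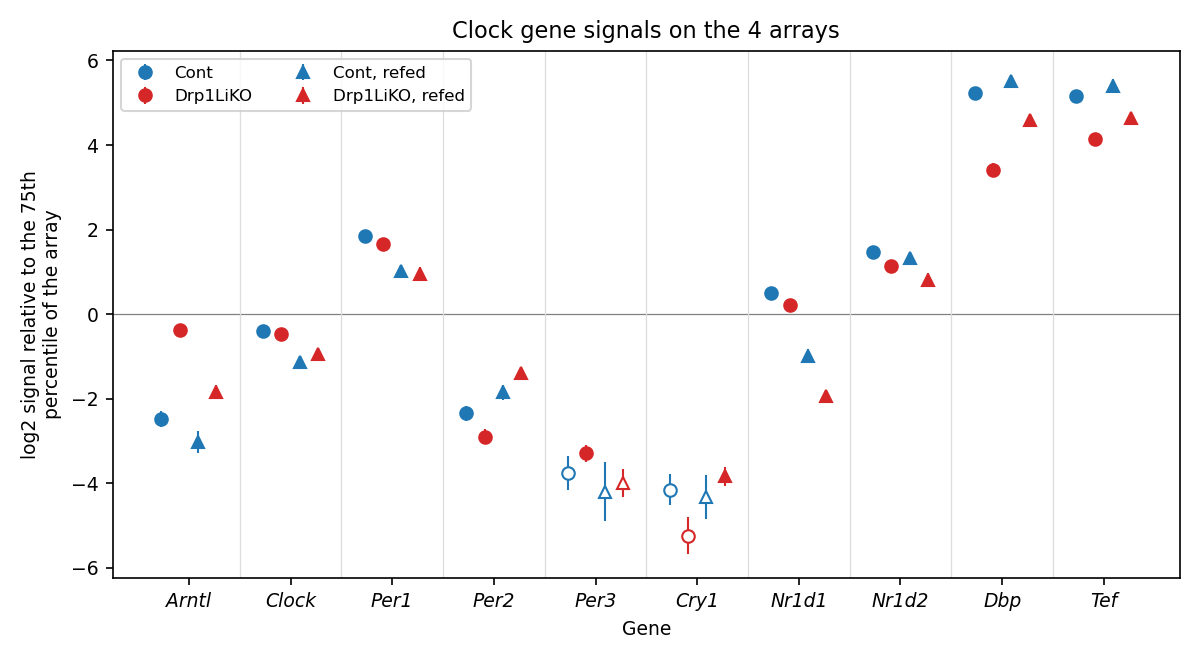
Log2 signal of each clock gene (vertical axis, 0 at the 75th percentile of gene probes) on each of the 4 arrays, with 1 array per group. Circles are livers not refed and triangles refed livers, Cont in blue and Drp1LiKO in red; open symbols were not well above background and bars are the measurement SE. Arntl is highest and Dbp lowest in the Drp1LiKO liver that was not refed.

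Without refeeding, Arntl was higher and the output genes Dbp and Tef were lower in Drp1LiKO liver than in Cont liver, and the other members that could be measured on both arrays differed by less than 1.5-fold. Arntl, the activator without which the loop stops, had a log2 signal of −2.48 in Cont and −0.37 in Drp1LiKO liver, a difference of 2.11 (SE 0.23) or 4.31-fold. In processed signal this was 82.5 against 557 scanner units. Among the 14447 genes on all 4 arrays it was the 46th most positive genotype difference. Dbp, a transcription factor of the PAR bZIP family and a direct E-box target, had log2 signals of 5.22 in Cont and 3.42 in Drp1LiKO liver and so was 3.48-fold lower, a difference of −1.80. The other Dbp probe, which starts 139 bases further along chromosome 7 in mm9, gave 5.04 and 3.18, a difference of −1.86. The 2 probes thus gave the same picture, and by the one used here Dbp had the 67th most negative genotype difference of 14447. Tef, its relative in the same family, was at 5.15 and 4.15, a difference of −1.0 that stood at the threshold (2.0-fold). Under quantile normalization Tef was at −0.76 and no longer called. These were 3 of the 9 members that could be tested, where 13.2% of 18040 genes were called, 8.06% as higher and 5.19% as lower in Drp1LiKO liver.

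Clock, the partner of ARNTL, did not follow Arntl. Its log2 signal was −0.41 in Cont and −0.46 in Drp1LiKO liver, a difference of −0.06 that was smaller than its measurement SE of 0.21. Per1, a repressor that also responds to hormones and fasting, was at 1.84 and 1.65. Per2 was at −2.34 and −2.89, 1.46-fold lower in Drp1LiKO liver. Nr1d1, the repressor of Arntl, was at 0.49 and 0.21, a difference of −0.28, and both probes of Nr1d2 differed by less than that of Per2 (−0.33 and −0.11). With the normexp background correction the Arntl difference was 1.48 (2.80-fold) in place of 2.11. Per3 was well above background only in Drp1LiKO liver, where it read 1.38-fold higher (0.46, SE 0.45). That direction turned with the normexp background correction (−0.48), and Cry1 was not well above background in either liver.

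After refeeding the genotypes differed in the same direction for Arntl, Dbp and Tef, but by less. Arntl was at −3.03 in refed Cont and −1.83 in refed Drp1LiKO liver, 2.29-fold higher, a difference of 1.19 (SE 0.30). Dbp was at 5.52 and 4.59, a difference of −0.93 or 1.91-fold lower, under the threshold, while its other probe at −1.06 was past it (2.09-fold). Tef was at 5.41 and 4.65, 1.70-fold lower. Nr1d1 now stood beside them, at −0.99 in Cont and −1.94 in Drp1LiKO liver, a difference of −0.95 (1.93-fold lower). Arntl alone was called, 1 of 9 members tested, where 14.4% of 17446 genes were called, 8.05% as higher and 6.33% as lower. Its refed Cont signal of 43.8 units was dim, and with the normexp background correction the difference fell from 1.19 to 0.48 and was not called. Nr1d2 was 1.43-fold lower (1.33 and 0.82) by the probe used and 1.32-fold lower by its other probe. Per2 was 1.36-fold higher (−1.84 and −1.40), and Clock and Per1 differed by 0.20 and −0.06. Cry1 was bright enough only in Drp1LiKO liver, by too little over the background of the Cont array for a fold.

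**Figure D2:**
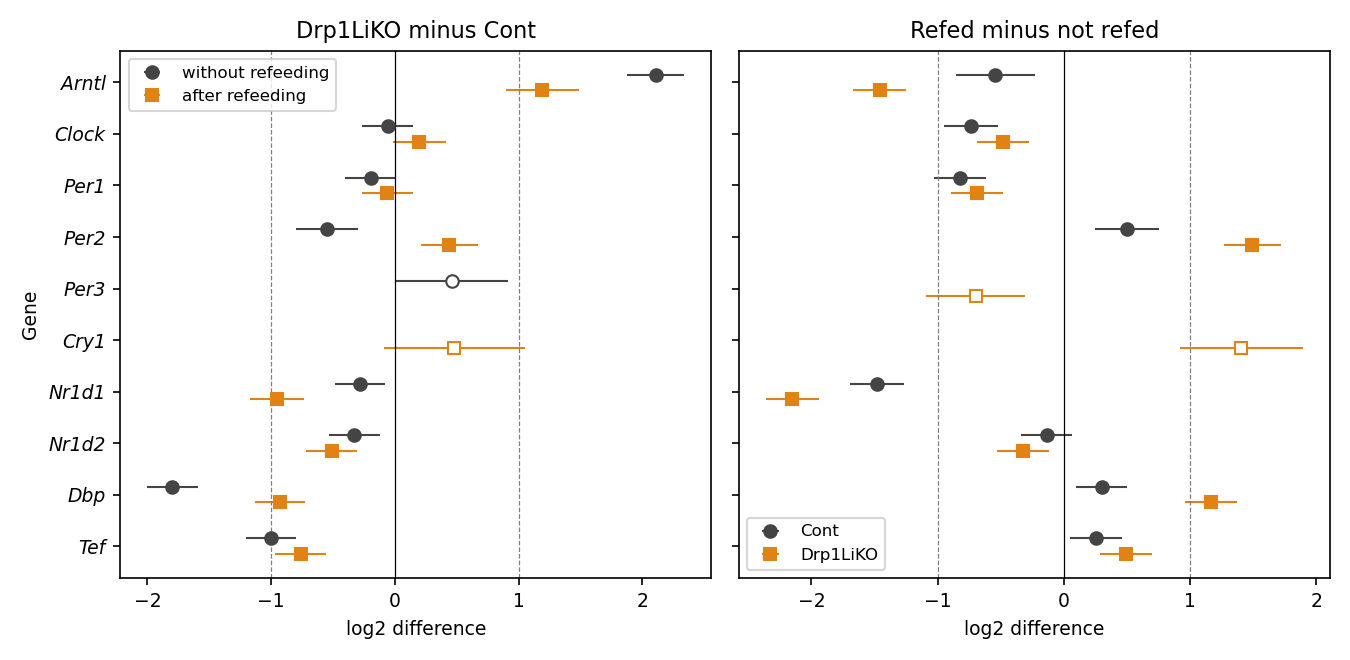
Log2 differences of each clock gene between genotypes (left, without and after refeeding) and between feeding states (right, in Cont and Drp1LiKO liver), with bars for the measurement SE and dashed lines at 2-fold. Open symbols had 1 of the 2 signals not well above background, and pairs with neither are left out. Arntl lies to the right and Dbp and Tef to the left of 0 in both genotype comparisons.

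Between feeding states Nr1d1 showed the largest fall of the members in both genotypes. Its log2 signal was 0.49 in Cont liver not refed and −0.99 in refed Cont liver, a difference of −1.48 (SE 0.21) or 2.79-fold. In Drp1LiKO liver it was 0.21 and −1.94, a difference of −2.15 or 4.44-fold. These were the 108th and the 45th most negative refeeding differences of 14447 genes. The 60-base Nr1d1 probe read here, named in the scanner files at chr11:98630526-98631028 (mm9), maps over a span of 503 bases and so crosses an exon junction.
Nr1d1 probe: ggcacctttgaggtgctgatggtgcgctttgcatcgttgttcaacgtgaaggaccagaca
In Cont liver Nr1d1 was the only member called, 1 of 8 tested, where 10.3% of 16437 genes were called, 4.47% as higher and 5.83% as lower. Nr1d2, which encodes the related receptor, moved little: the differences of its probe used here were −0.14 in Cont and −0.32 in Drp1LiKO liver, and those of its other probe were −0.30 and −0.59. The scanner files place the brighter Nr1d2 probe on chromosome 19 and the other on chromosome 14, so the brighter one may not read the Nr1d2 locus.

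In Drp1LiKO liver 5 of 10 members were called between feeding states, where 12.8% of 18329 genes were called, 5.61% as higher and 7.15% as lower. Nr1d1 and Arntl were lower and Per2, Dbp and Cry1 were higher in the refed liver. Arntl was at −0.37 without refeeding and −1.83 after it, a difference of −1.46 (SE 0.21, 2.75-fold), against −0.54 (SE 0.31) in Cont liver. Per2, a repressor of ARNTL and CLOCK, was at −2.89 and −1.40, a difference of 1.49 (2.81-fold), the 114th most positive of 14447, against 0.50 in Cont liver. Dbp was at 3.42 and 4.59, a difference of 1.17 (2.25-fold), against 0.30 in Cont liver. With quantile normalization the Dbp difference in Drp1LiKO liver was 0.91 and not called, and that in Cont liver was 0.06. Cry1, the other class of repressor, was at −3.83 in refed Drp1LiKO liver and at least 1.91-fold lower in the liver that was not refed, where it was not well above background. With normexp the difference was 0.64 in place of 1.40, so the call depends on how the dim signal is read.

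Clock and Per1 were lower in the refed liver of both genotypes, by less than 2-fold. Clock had log2 signals of −0.41 and −1.14 in Cont and of −0.46 and −0.94 in Drp1LiKO liver, differences of −0.73 and −0.48. Per1 had 1.84 and 1.02 in Cont and 1.65 and 0.96 in Drp1LiKO liver, differences of −0.82 and −0.69. A second Per1 probe stayed too dim to be read on every array. Tef was higher in both, by 0.25 and 0.49, although the Cont value became −0.01 under quantile normalization. Per3 was well above background in Drp1LiKO liver without refeeding and read 1.62-fold lower in the refed one (−0.70, SE 0.39), which again turned with normexp (0.27).

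At a threshold of 1.5-fold the members called between feeding states were 3 of 8 in Cont liver (21.8% of all genes tested) and 7 of 10 in Drp1LiKO liver (32.4%). Between genotypes they were 3 of 9 without refeeding (28.2%) and 4 of 9 after it (30.1%).

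The refeeding differences of the members on all arrays kept their sign in both genotypes, and their sizes differed for some of them. Subtracting the Cont difference from the Drp1LiKO difference gave −0.91 (SE 0.38) for Arntl, 0.99 (SE 0.34) for Per2, 0.87 (SE 0.29) for Dbp and −0.67 (SE 0.30) for Nr1d1. For Clock, Per1, Tef and Nr1d2 it lay between −0.19 and 0.26, within the SE of each. None of the 8 reached 1 on the log2 scale, which 614 of 14447 genes (4.25%) did, but Per2 stood just below it and was at 1.1 with scaling to the array median and 1.06 with quantile normalization, and at 0.61 with normexp. Arntl was at −1.0 with normexp, its refeeding difference in Cont liver then being −0.12. Because each term is 1 liver, this difference could not be tested.

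**Figure D3:**
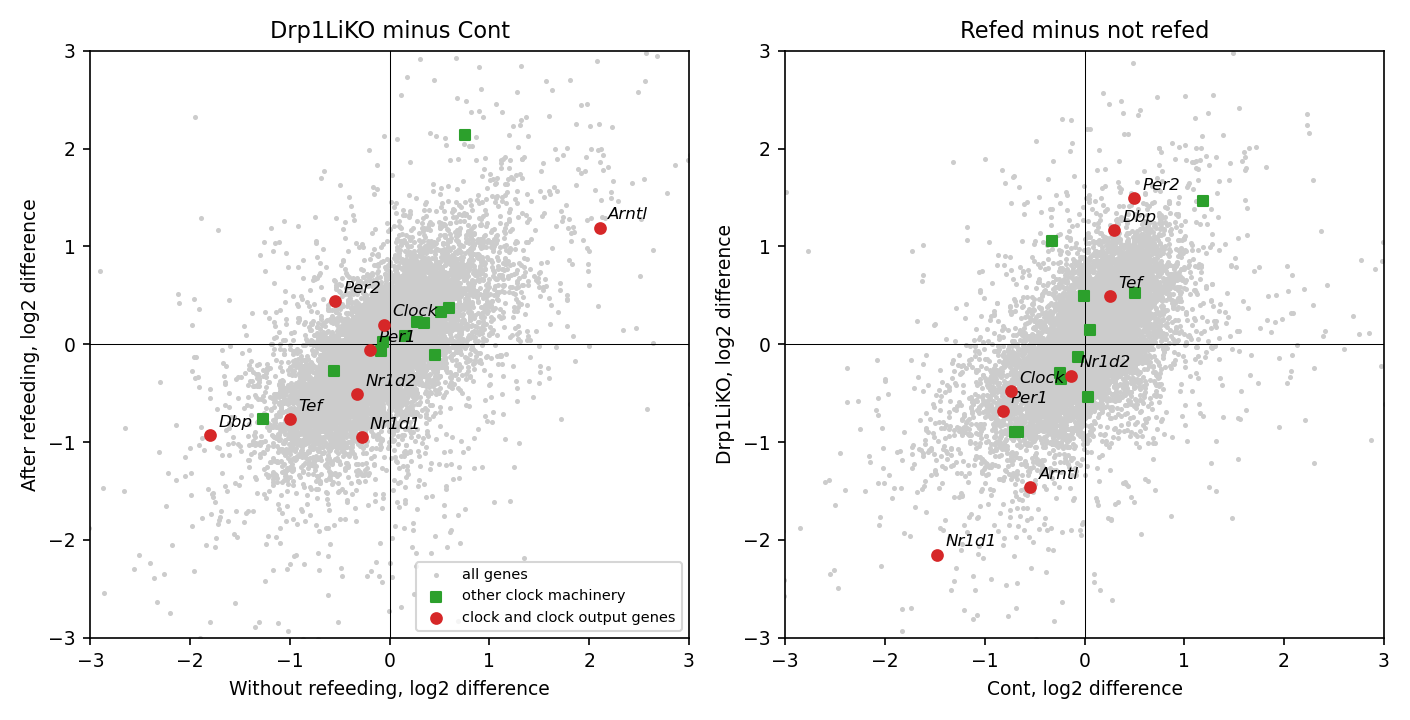
Log2 differences of all 14447 genes well above background on the 4 arrays (grey), with the clock and clock output genes in red and other clock machinery in green squares. The left panel sets the genotype difference after refeeding against that without it, the right panel the refeeding difference in Drp1LiKO against that in Cont liver; 53 and 24 genes lie outside the axes. Arntl lies apart at the upper right of the left panel and Nr1d1 at the lower left of the right panel.

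The test that these 4 arrays allow is an additive fit of genotype and feeding state with limma over 16744 genes, which leaves 1 residual degree of freedom and counts any unequal response as error. No gene passed an adjusted p of 0.05 for genotype, where the smallest was 0.0614 and 4746 genes (28.3%) had an unadjusted p under 0.05. Arntl was higher in Drp1LiKO liver by 1.65 (SE 0.28) over both feeding states with a limma adjusted p of 0.106. Tef was lower by 0.88 (limma estimate −0.88, adjusted p 0.106) and Dbp had an estimate of −1.36 (limma adjusted p 0.110). Each of these had the same direction in both pairs of livers, and they were the 3 members of 8 with an unadjusted p under 0.05. With the 14447 genes that every array measured well above background, the same fit called these 3 (limma adjusted p of 0.0375 for Arntl, 0.0416 for Tef and 0.0433 for Dbp) among 1214 genes, 8.4% of those tested. Over all alternatives the smallest adjusted p of a member for genotype lay between 0.0375 and 0.316 by limma.

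For feeding state limma also called no gene, with a smallest adjusted p of 0.169 and 4414 genes (26.4%) at an unadjusted p under 0.05. Of the 8 members 5 were among the latter. Nr1d1 was lower after refeeding (estimate −1.82, limma adjusted p 0.169), as were Arntl (−1.0, limma adjusted p 0.172), Per1 (−0.75) and Clock (−0.61), and Per2 was higher (1.0, limma adjusted p 0.178). The remaining 3 were Dbp at 0.73, Tef at 0.37 and Nr1d2, by its brighter probe, at −0.23. In that narrower set of genes 15 (0.104%) were called for feeding state, with 0 of the 8 members. None of these estimates separates refeeding from a possible difference in the hour of collection. The genotype estimates likewise do not separate genotype from a possible difference in hour or clock phase between the animals.

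A list of 16 other genes of the clock machinery, namely further activators, receptors, kinases and ubiquitin ligases, was counted in full. In Drp1LiKO liver without refeeding 3 of 13 tested were at least 2-fold lower and none higher (5.19% and 8.06% of all genes tested), with a median difference of 0.15 against −0.08 over all genes tested. Hlf, the remaining PAR bZIP factor, was at 1.65 in Cont and 0.38 in Drp1LiKO liver, a difference of −1.27, and after refeeding at 1.64 and 0.88, a difference of −0.76. Neither Hlf nor the used probes of its relatives Dbp and Tef passed 2-fold between genotypes after refeeding. Ciart, a clock-controlled repressor, read 2.67-fold lower without refeeding (SE 0.43 on the log2 scale), where its Drp1LiKO signal was not well above background. After refeeding it was 1.61-fold lower. The third, Fbxl21, a ubiquitin ligase subunit that acts on CRY proteins, had a difference of −2.19 by the probe used. Its other probe, not well above background in Cont liver, gave 0.24, so the lower signal was not borne out by both probes. Nono and Nfil3 differed by no more than 0.34 in either feeding state. The kinase gene Csnk1d differed by 0.15 and 0.09 by the probe used and by 0.72 and 0.77 by its other probe, and Cry2 by −0.09 and −0.07 against −0.47 and 0.09. Rora, an activator of Arntl, was 0.59 and 0.37 higher in Drp1LiKO liver, both under 2-fold.

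After refeeding Timeless was the only one of 12 tested that was called between genotypes, where 14.4% of all genes tested were. This homologue of a fly clock gene, which in mammals also acts in DNA replication, was at −2.24 in refed Cont and −0.11 in refed Drp1LiKO liver, a difference of 2.14. Its other probe was not well above background in Cont liver and gave no fold. Between feeding states Bhlhe40, a repressor that responds to feeding, was higher in refed liver by 1.18 in Cont and 1.47 in Drp1LiKO. With Timeless (1.06 in Drp1LiKO) this made 1 of 13 higher in Cont (4.47% of all genes tested) and 2 of 13 higher in Drp1LiKO liver (5.61%). Fbxl21 was at least 3.66-fold lower in refed Cont liver by the probe used. Npas2, Rorb and Bhlhe41 were too dim to be read on every array.

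**Figure D4:**
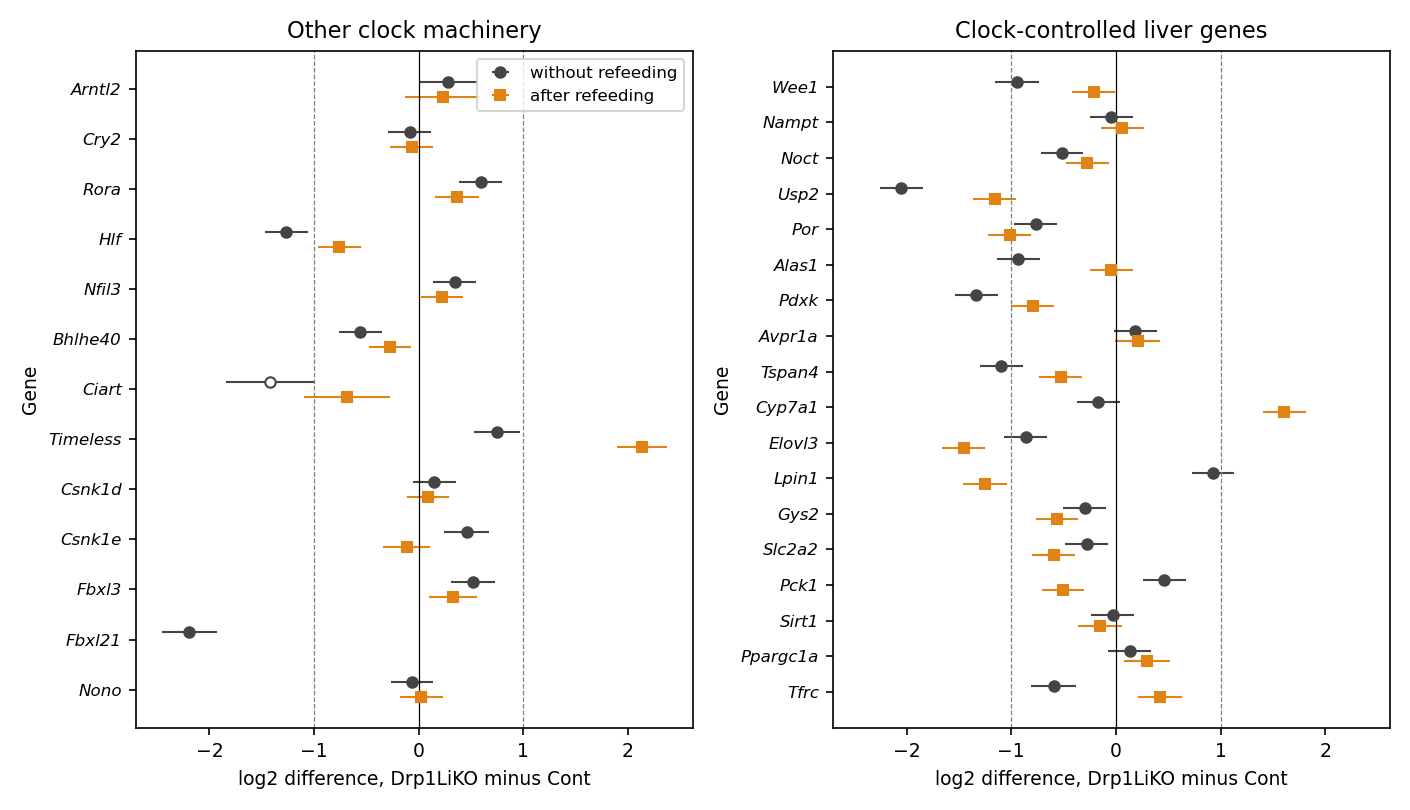
Log2 genotype difference (Drp1LiKO minus Cont) of the other clock machinery (left) and of clock-controlled liver genes (right), without refeeding (grey circles) and after it (orange squares), with the measurement SE; dashed lines mark 2-fold and open symbols had 1 signal not well above background. Hlf, Usp2, Pdxk and Tspan4 lie left of 0 in both states, and Timeless lies far to the right after refeeding.

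Of 18 liver genes known to follow the clock, 14 had a lower signal in Drp1LiKO than in Cont liver without refeeding and 13 after it. Their median difference was −0.41 without refeeding, against −0.08 over all genes tested, and −0.39 after it, against −0.04. The 6 hepatocyte markers had medians of −0.42 and −0.46 in the same comparisons, with 5 of 6 below 0 in both, and the part of this in the medians of the 18 genes was not tested. At least 2-fold lower were 3 of the 18 without refeeding (5.19% of all genes tested) and 4 after it (6.33%). Usp2, a ubiquitin protease under clock control, was at 1.74 in Cont and −0.31 in Drp1LiKO liver, a difference of −2.05, and the difference after refeeding was −1.16. Pdxk, a vitamin B6 kinase and a target of the PAR bZIP factors, differed by −1.33 and −0.79, and Tspan4 by −1.09 and −0.53. None was at least 2-fold higher without refeeding, and Cyp7a1, the rate-limiting enzyme of bile acid synthesis, was the only one after it (1.61). Por, the electron donor of cytochromes P450, Elovl3 and Lpin1 were at least 2-fold lower after refeeding (−1.01, −1.45 and −1.25). Lpin1, a phosphatase of lipid synthesis, was 0.93 higher without refeeding, while its other probe, also well above background on both of these arrays, gave −1.52, so the direction of Lpin1 without refeeding is unsettled.

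Upon refeeding the same 18 genes gave 1 call higher and 3 lower in Cont liver, and 5 higher and 3 lower in Drp1LiKO liver. Over all genes tested 4.47% were called higher and 5.83% lower in Cont, and 5.61% and 7.15% in Drp1LiKO liver. Wee1, a kinase of the cell cycle and an E-box target, was higher in both (1.16 and 1.89), and Elovl3 was lower in both (−1.14 and −1.73). Cyp7a1 and Ppargc1a were lower in Cont liver (−1.03 and −1.02). Usp2, Tfrc, Tspan4 and Pdxk were higher in Drp1LiKO liver by 1.67, 1.41, 1.39 and 1.30. Lpin1 and Pck1 were lower there, with differences of −3.17 and −1.60 on the log2 scale.

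Genes known to follow food intake were read beside these values. On refeeding 6 of 8 fasting-induced genes had a lower signal in Cont and 8 of 8 in Drp1LiKO liver, and 5 of 5 and 4 of 5 feeding-induced genes had a higher one. The other 2 fasting-induced genes in Cont liver, G6pc and Fgf21, were over 2-fold higher after refeeding (1.38 and 1.47), against 3 that were over 2-fold lower. Over all genes tested 4.47% were called higher and 5.83% lower in Cont liver. In Drp1LiKO liver 6 of the 8 were at least 2-fold lower and 0 higher, where 7.15% and 5.61% of all genes tested were. Without refeeding, 2 of the 5 feeding-induced genes were at least 2-fold lower in Drp1LiKO liver (5.19% of all genes tested), with a median of −0.97. Of the 8 fasting-induced genes 3 were at least 2-fold higher there (8.06%). Their median was 0.35, with 6 above 0 and 2 below, and Igfbp1 among them was higher by 3.68. The part of these differences in the genotype values of the clock genes was not tested. Whole liver also holds other cells, and fewer cells of a type cannot be told apart from less RNA per cell. All 6 hepatocyte markers were well above background on every array, and their summed signal, in units of the 75th percentile, was 2157 and 2683 in Cont and 1504 and 1850 in Drp1LiKO liver. All 6 macrophage markers were also detected, with summed signals of 49.9 and 58.4 in Cont and of 57.7 and 98.8 in Drp1LiKO liver. Of 4 adipocyte markers only Cfd was well above background, on every array (list sum 4.29 and 21.9 in Cont, 0.157 and 0.331 in Drp1LiKO liver). The neutrophil sum was 4.72 and 4.93 in Cont against 2.46 and 8.80, the stellate cell sum 45.4 and 51.1 against 64.9 and 58.2, and the endothelial sum 53.6 and 56.7 against 44.5 and 38.1. A sum is weighted to its brightest marker. Of the stellate cell markers 3 were higher and 1 lower in Drp1LiKO liver without refeeding. After refeeding 1 was higher and 3 were lower (median difference −0.18), unlike their sum. For T and B cells the sum was 2.32 and 3.0 against 1.68 and 2.18, and for cholangiocytes 0.233 and 0.340 against 0.393 and 0.635. The T and B cell markers did not follow their sum. Without refeeding 3 were higher and 1 lower in Drp1LiKO liver (median difference 0.51), and after refeeding 2 were higher and 2 lower. The part of these in the clock gene values was not tested. The Dnm1l probe differed by −0.21 and −0.12 between genotypes, and since its place relative to the deleted exons was not given it checks nothing about the knockout.

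Among the genes whose 4 signals ran most like those of Dbp, by Euclidean distance between log2 values centred on each gene's mean over the 4 arrays, were Gstt3 (0.11), Rnu3b1 (0.13), Ccdc151 (0.26) and Igfals (0.34). Those nearest to Arntl were the transcript BY726210 (0.19), Slc35f2 (0.34), Gtpbp2 (0.37), Ehhadh (0.38) and Btg2 (0.39). The distances are over 4 arrays and 14439 genes and are given as a description.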

How the data were processed

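Total RNA of 4 livers was hybridised by the authors on one-colour Agilent whole mouse genome arrays, all on 1 slide. The deposited scanner files hold processed intensity values, background-subtracted by Feature Extraction (10.7.1.1 per the file headers, 9.5.1.1 in the submitters' processing notes); the deposited series matrix holds quantile-normalized linear intensity (median 39.6 on each array). Probe positions follow mm9. The livers not refed were deposited earlier with the same raw data, per the labels. From the processed signal, spots the software marks as outliers were left out, as were 37 of 39429 probes with no other spot on an array, repeated spots averaged, and log2 values set relative to the 75th percentile of each array. Of 28389 probes with a RefSeq accession 26761 matched a gene on GRCm38.p6. Each gene was read by the probe well above background on most arrays, then the brightest. With 1 array per group no test was possible within a comparison. The additive fit used limma 3.58.1 in R 4.3.3 (genes well above background on 2 or more arrays, Benjamini-Hochberg adjustment). On simulated data 191 of 200 genes changed 2-fold in feeding state were recovered with 18 false calls among 16744 genes. Those data gave every gene the same noise and no unequal response, so this recovery does not measure power on these arrays. Differences used Python 3.11.15 with pandas 2.3.3. Members and gene lists were chosen with earlier results of these data known. List genes outside the members are named where they differed 2-fold or more, and some other clock machinery genes that stayed under 2-fold or were too dim are named as well. Some genes of these lists are not reported here. Alternatives were another scaling, quantile normalization, normexp (offset 50), the series matrix, all probes, other dim-probe filters and a 1.5-fold threshold.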

Additional observations from a re-analysis of the deposited data

Results flagged for a closer look

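Per2 was lower in Drp1LiKO than in Cont liver without refeeding (log2 difference −0.55) and higher after refeeding (0.44), so that the livers of the 2 feeding states differed in opposite directions, each by more than its measurement SE (0.25 and 0.23). With the normexp background correction the value after refeeding was 0.18, within that error. With 1 liver per group the difference between them was not tested.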

How the results depend on the processing

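No paired analysis was possible because each group has 1 array, and leaving out an array would leave the additive fit no residual degrees of freedom. Of 36 member differences 32 kept their sign in every alternative; the exceptions were Tef in Cont liver between feeding states and 3 values of the dim genes Per3 and Cry1, for which the cause was not tested. Of 248 recomputed differences 27 moved by more than the measurement SE, 11 of them upward. With a threshold of 1.5-fold the calls rose from 1 to 3 between feeding states in Cont liver (21.8% of genes) and from 1 to 4 between genotypes after refeeding (30.1%). With normexp the calls between genotypes after refeeding fell to 0 (6.14% of genes). The limma genotype calls rose from 0 to 3 when genes dim on any array were left out. The other 46 counts of members stayed within 1.5 times. Reading dim signals at their bound, which was chosen after seeing the data, left 4 calls in place of 5 between feeding states in Drp1LiKO liver, without Cry1.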
